A study of Bos taurus with 12 samples.

Results

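The pyruvate dehydrogenase complex and the enzymes that switch it on and off were followed in the mammary gland (MG) of 12 Holstein cows. The 10 members were chosen by gene symbol, namely the kinases PDK1, PDK2, PDK3 and PDK4, the phosphatases PDP1 and PDP2, and the subunits PDHA1, PDHB, DLAT and PDHX. The RefSeq accessions of the array matched 9 of them with 26 probes, out of 43653 probes and 12639 named genes on the array. No probe was matched to PDP2. The single probe of PDP1 did not rise well above background in any cow, and 8 members remained as measured.

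All cows were multiparous, at 24 ± 3 days in milk, and all received 50 µg of lipopolysaccharide (LPS) into 1 rear gland of the udder on day 3 of the experiment. The 6 CONT cows ate a lactation diet. In the 6 REST cows that diet was diluted with barley straw to 48% of dry matter for 4 d. One biopsy per cow, taken 24 h after LPS, gave the RNA of 1 one-color array, so that the comparison is between diets in glands that had all met LPS. The biopsy held lactating epithelium, since the 8 matched markers of 9 fixed for it, among them CSN1S1, CSN3 and LALBA, were well above background on all 12 arrays. The 12 arrays lay on 3 slides of 4 arrays, with 3 CONT and 1 REST on slide 1, 1 CONT and 3 REST on slide 2, and 2 of each on slide 3. The average net signal of the negative controls on an array was 37.7 to 58.2 on slide 1 and 17.4 to 19.96 on the others. The share of probes well above background was 57.6 to 76.0% in CONT and 63.2 to 78.1% in REST.

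The complex sits in the mitochondrial matrix and turns pyruvate into acetyl-CoA, the step that commits glucose carbon to oxidation. Its pyruvate-decarboxylating component is built from the alpha subunit PDHA1 and the beta subunit PDHB, its acetyltransferase core is DLAT, and PDHX anchors the dihydrolipoyl dehydrogenase. The PDK enzymes phosphorylate PDHA1 and switch the complex off, and the PDP phosphatases remove the phosphate and switch it on again. PDK4 is the isoform best known for induction by fasting and by FA, in muscle, heart and liver, where it spares glucose. In the ruminant MG glucose is needed for lactose, and most carbon for FA synthesis comes from acetate.

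Values below are log2 signals of a probe minus the 75th percentile of its array, so that 0 is the brightness of the 75th percentile probe. The tests compared a probe only with itself in other cows. A difference is the mean of REST minus the mean of CONT (log2 FC), with the SE of the limma moderated test. The brightest probe stood for a gene.

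Among the members PDK4 differed most between the diets, and it was higher in REST by every probe. The log2 signals of its brightest probe, A_73_P347021, were 2.36, 3.58, 3.52, 2.84, 3.06 and 2.37 in CONT cows 1 to 6. They were 4.35, 4.08, 4.49, 5.88, 5.33 and 7.001 in REST cows 1 to 6. The lowest REST cow lay 0.49 above the highest CONT cow. CONT cows averaged 2.95 ± 0.54 (SD, n = 6), whereas REST cows averaged 5.19 ± 1.11 (SD, n = 6). This is a log2 FC of 2.23 ± 0.46 (SE), with a 95% interval of 1.23 to 3.24, and an FC of 4.70. An exact two-sided permutation test over the cows gave p = 0.00216 for this single value, the smallest p that 6 cows against 6 allow. The study itself picked PDK4 on these samples, so this p is not independent evidence. Across all probes the difference did not pass the threshold, with a Westfall-Young adjusted p of 0.94 and a Benjamini-Hochberg adjusted p of 1.0 from the limma test.

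No probe of the array passed either adjustment, 0 of 43653 (0%) by Westfall-Young and 0 (0%) by Benjamini-Hochberg, and the lowest Westfall-Young adjusted p was 0.35. An unadjusted limma p under 0.05 was met by 1143 probes (2.62%), 761 of them higher in REST (1.74%). PDK4 had the largest positive log2 FC among the 9083 named genes whose brightest probe read well above background in all 12 cows, and its unadjusted p ranked at number 2.

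The other PDK4 probes gave the same picture. The log2 FC of the 8 probes ran from 2.10 to 2.69, with SE of 0.42 to 0.53 and Westfall-Young adjusted p of 0.87 to 1 from limma. In 7 of the 8 every REST cow was above every CONT cow, a pattern met by 32 of all 43653 probes (0.0733%), while 56 (0.128%) had groups that did not overlap in either direction. The exception was A_73_P258536, where REST cow 2, at 2.86, was below CONT cow 2, at 2.90. The 8 probes report on 1 gene and are not independent replicates. With normexp background correction the 2 dimmest probes had smaller differences, A_73_P088251 moving from 2.20 to 1.47 and A_73_P320911 from 2.69 to 1.49, and 4 of the 8 probes had groups that did not overlap. The dimmest, A_73_P320911, was well above background on 5 of the 6 CONT arrays and on all 6 REST arrays.

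**Figure D1:**
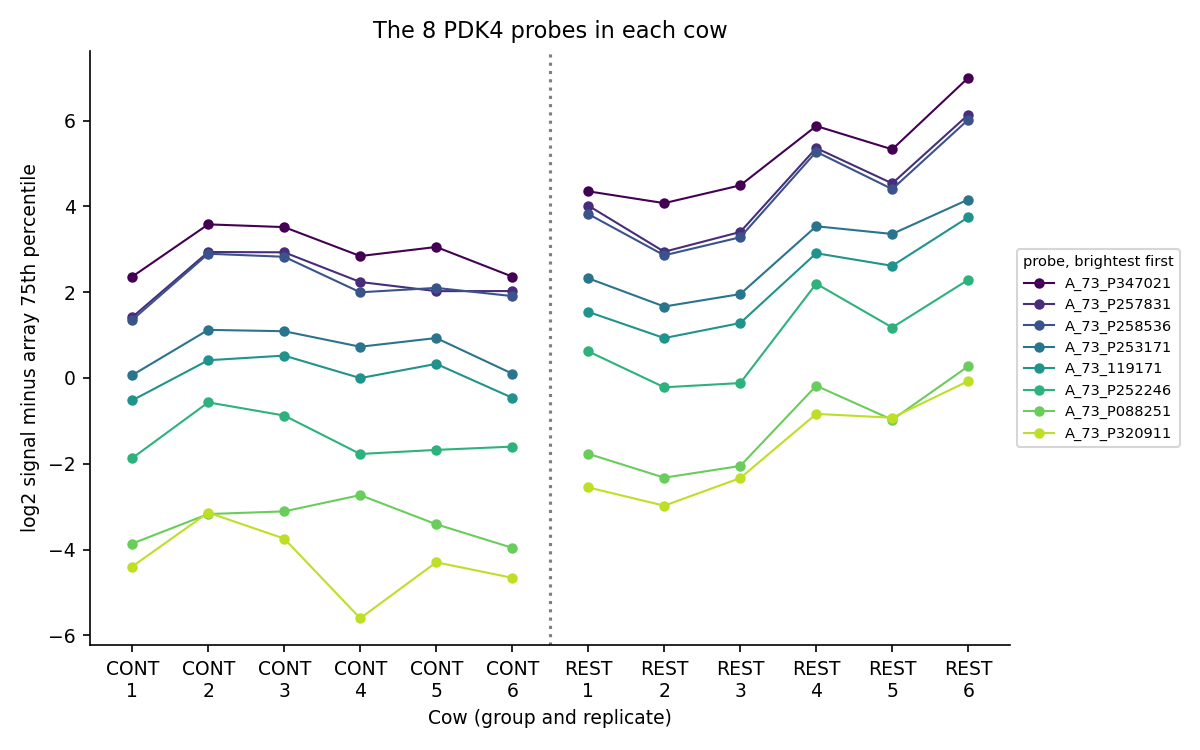
Log2 signal minus the array's 75th percentile (vertical axis) for each of the 8 PDK4 probes (lines, brightest first in the key) in each of the 12 cows (horizontal axis; lines join cows only to guide the eye). REST cow 6 is the highest and REST cow 2 the lowest REST cow by all 8 probes, and by 7 of the 8 all REST points lie above all CONT points.

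The spread of PDK4 among the REST cows was wide. For the brightest probe the values spanned 2.92 in REST and 1.22 in CONT. Set against the CONT mean, REST cow 6 was 16.5-fold higher, REST cow 4 was 7.58-fold and REST cow 5 was 5.19-fold. REST cows 3, 1 and 2 were 2.90-, 2.64- and 2.18-fold above it. All 8 probes placed REST cow 6 highest, then cow 4, then cow 5, and cow 2 lowest. Cows 1 and 3 lay between, and their order differed among the probes. After the group means were removed, the correlation between PDK4 probes over the 12 cows was 0.69 to 0.997. These probes share the RNA and the array of each cow.

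Within each slide PDK4 was higher in REST. The difference for the brightest probe was 1.19 on slide 1, where a single REST cow stood against 3 CONT cows, 2.73 on slide 2 and 2.80 on slide 3. With slide as a block it was 2.30, and on slides 2 and 3 alone it was 2.61. Leaving out 1 cow at a time gave 1.87 (without REST cow 6) to 2.46 (without REST cow 2).

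**Figure D2:**
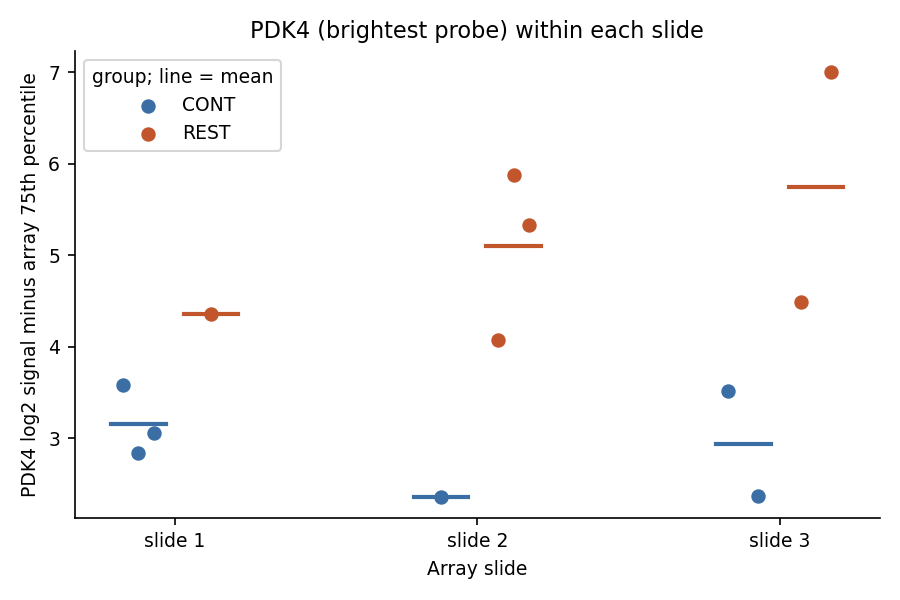
Log2 signal of the brightest PDK4 probe minus the array's 75th percentile (vertical axis) by array slide (horizontal axis), with CONT in blue and REST in orange, each point 1 cow and each line the mean of the group on that slide. The REST points lie above the CONT points on all 3 slides, and the means are 1.19, 2.73 and 2.80 apart.

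The other kinases showed no such difference. For PDK1, log2 signals were -0.93, -0.63, -0.53, -1.22, -1.16 and -0.49 in CONT cows 1 to 6 and -1.03, -0.36, -1.37, -1.19, -0.43 and -1.17 in REST cows 1 to 6. The groups overlapped, and the log2 FC was -0.10 ± 0.22 (SE), with a 95% interval of -0.58 to 0.38. PDK2, the most widely expressed isoform in mammalian tissues, had a log2 FC of -0.03 ± 0.21 (SE), interval -0.50 to 0.43. With slide as a block PDK1 was at -0.23 and PDK2 at -0.16, and leaving out 1 cow turned the sign of PDK2 in 4 of 12 fits. PDK3 had a log2 FC of -0.06 ± 0.21 (SE), interval -0.50 to 0.39, and this small value changed sign to 0.010 with slide as a block. All 7 probes of these kinases had a negative log2 FC, from -0.28 to -0.02, and Westfall-Young adjusted p of 1 in limma. The intervals of the brightest probes leave out a difference as large as the lower bound for PDK4. They do not leave out smaller shifts in either direction.

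The contrast between PDK4 and the other kinases was tested directly, by taking the log2 signal of PDK4 minus that of the other kinase within each array, where the scaling cancels. The difference was larger for PDK4 by 2.33 ± 0.58 (SE) than for PDK1, by 2.27 ± 0.46 than for PDK2 and by 2.29 ± 0.51 than for PDK3. In each of the 3 comparisons all 6 REST cows were above all 6 CONT cows, and the exact two-sided permutation p was 0.00216, also after Benjamini-Hochberg adjustment over the 3. The difference was positive on every slide, from 0.93 to 3.57. The 3 comparisons share the same PDK4 values. PDK4 is also among the genes the study picked on these samples, so these p-values are not independent evidence.

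**Figure D3:**
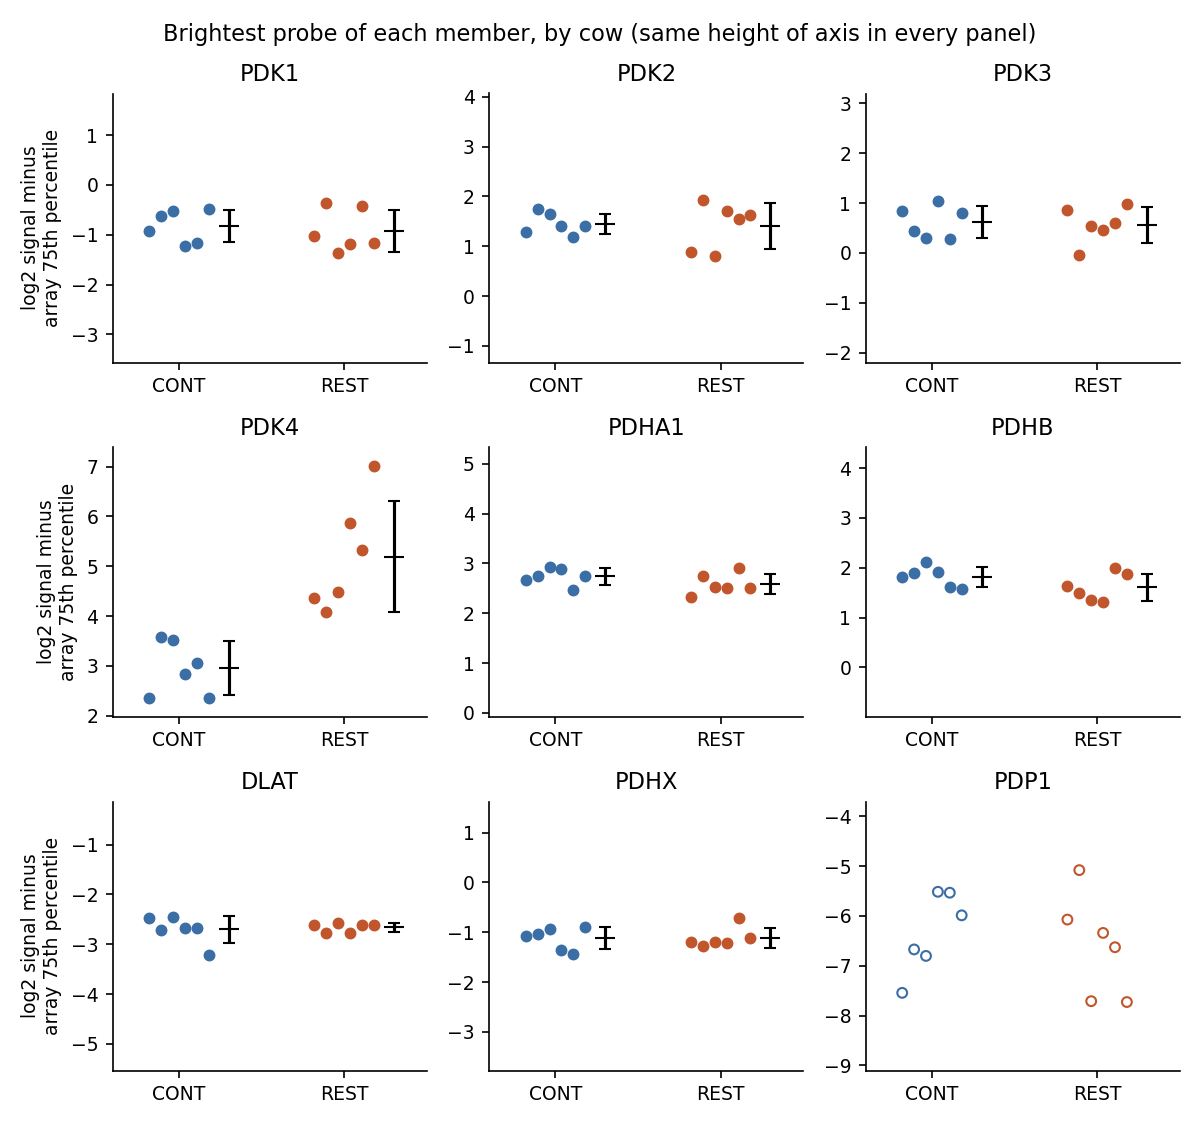
Log2 signal minus the array's 75th percentile (vertical axis, 5.4 units high in every panel) of the brightest probe of each matched member in CONT (blue) and REST (orange) cows, with the mean and SD (n = 6) in black, and with open circles where the probe was not well above background. PDK4 is the only member whose groups do not overlap, and PDP1 has open circles alone and so no mean.

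Neither phosphatase could be followed, since PDP2 had no matched probe and PDP1 gave no reading above the limit of the arrays. The probe of PDP1, the calcium-stimulated isoform, had normalized log2 signals from -7.54 to -5.52 in CONT and from -7.73 to -5.08 in REST. No FC was taken from these readings, and PDP1 messenger was not detectable here rather than absent.

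The decarboxylase subunits were slightly lower in REST by their brightest probes, within the spread of the cows. For PDHA1, the subunit that PDK enzymes phosphorylate, log2 signals were 2.67, 2.74, 2.92, 2.89, 2.46 and 2.75 in CONT cows 1 to 6 and 2.33, 2.74, 2.53, 2.51, 2.90 and 2.50 in REST cows 1 to 6. The groups overlapped, and the log2 FC was -0.15 ± 0.14 (SE), interval -0.47 to 0.16. Its 4 probes did not share a direction, since 2 were higher and 2 lower (-0.27 to 0.27), and their mean was 0.023. PDHB had a log2 FC of -0.22 ± 0.17 (SE), interval -0.58 to 0.14, by its brightest probe and -0.20 ± 0.16 by the other. For PDHB the sign was the same within each slide, at -0.18, -0.22 and -0.24, and when any 1 cow was left out (-0.29 to -0.16). None of these passed the limma test, with Westfall-Young adjusted p of 1 for all 6 probes.

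The core subunits differed by less than the spread of the cows. DLAT, the acetyltransferase, had log2 signals of -2.48, -2.72, -2.46, -2.67, -2.68 and -3.21 in CONT cows 1 to 6 and -2.62, -2.77, -2.58, -2.77, -2.61 and -2.61 in REST cows 1 to 6. CONT cow 6 was below the rest, and the groups overlapped. The log2 FC was 0.04 ± 0.15 (SE), interval -0.28 to 0.37, with the sign turned to -0.017 by quantile normalization and to -0.013 by a median shift. PDHX, the protein that binds the dihydrolipoyl dehydrogenase, had log2 signals of -1.07, -1.03, -0.94, -1.36, -1.43 and -0.90 in CONT cows 1 to 6 and -1.20, -1.27, -1.19, -1.21, -0.72 and -1.12 in REST cows 1 to 6. Here REST cow 5 stood above the other REST cows. The log2 FC was 0.0042 ± 0.15 (SE), interval -0.33 to 0.34, and it turned to -0.027 and -0.052 under the same normalizations and to -0.070 with slide as a block.

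Of the 8 measured members, 3 had a positive and 5 a negative log2 FC, with a median of -0.04, against a median of -0.03 over the brightest probes of all 12639 named genes, of which 43.5% were positive. With quantile normalization or a median shift, PDK4 was the 1 member with a positive value. PDK4 was also the 1 member of 8 with an unadjusted p under 0.05 and higher in REST, against 206 of all named genes (1.63%). Its groups were the only ones that did not overlap, with all REST cows above, as in 10 of all named genes (0.0791%).

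**Figure D4:**
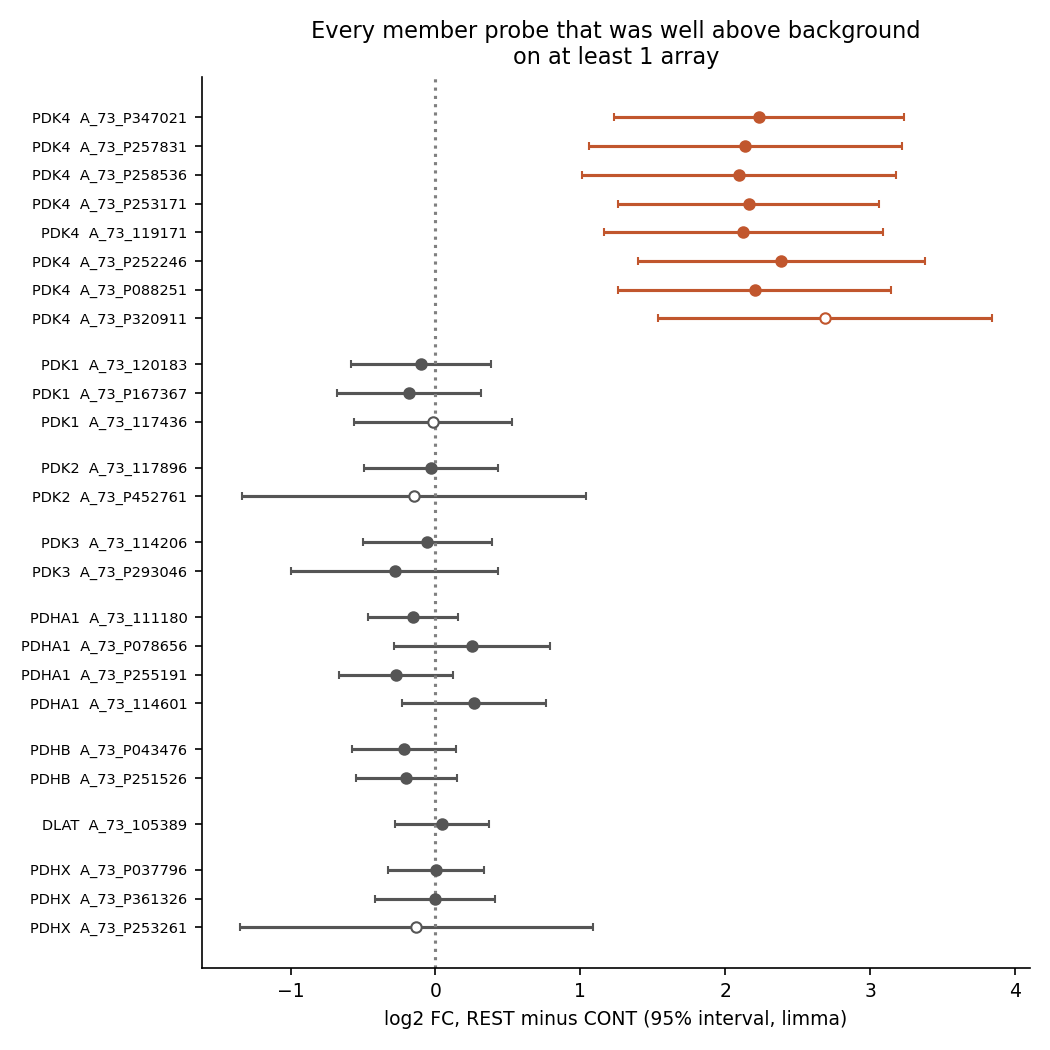
Log2 FC, REST minus CONT (horizontal axis), with its unadjusted 95% limma interval for the 25 member probes that were well above background on at least 1 array (vertical axis, grouped by gene), with open symbols where some arrays were not. The 8 PDK4 probes lie between 2.10 and 2.69, and all other probes between -0.28 and 0.27.

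Across cows, the members did not vary as 1 unit. With group means removed, the log2 signals of PDK1 and PDHX had a Pearson correlation of 0.65 over the 12 cows, PDK1 and PDHA1 of 0.63, and PDK1 and PDK2 of 0.57. PDK1 and PDK3 had one of -0.45. PDK4 had correlations from -0.18 (with PDK1) to 0.44 (with PDHB). Some of these changed when 2 cows were left out. Without REST cows 2 and 6 the value for PDK4 went from 0.42 to 0.85 with PDK2 and from 0.18 to -0.66 with PDK3. These describe single probes that share arrays, and no test was made.

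The genes whose pattern over the cows was most like that of PDK4 were looked for among 9000 other named genes well above background on all arrays and with a value left on each after outlier spots were dropped, again with group means removed, so that the diet difference did not enter. The 5 highest correlations were those of SIDT2 (0.95), QDPR (0.92), BLOC1S5 (0.91), BPI (0.89) and ANXA11 (0.88). The median over all genes was 0.05 and the 5th to 95th percentiles were -0.45 to 0.54. SIDT2 is a lysosomal membrane protein, QDPR recycles tetrahydrobiopterin, and BPI is a bactericidal protein of neutrophil granules. REST cows 2 and 6 had PDK4 farthest from its median once group means were removed. Without these 2 cows the correlations were 0.88, 0.80, 0.89, 0.78 and 0.70 in the same order. The log2 FC of SIDT2 was 0.03 ± 0.18 (SE) and that of QDPR 0.06 ± 0.14. BPI had one of 1.12 ± 0.67, and none of the 5 had an unadjusted limma p under 0.05. ESRRA, a nuclear receptor known to act on the PDK4 promoter, had a correlation of 0.50 and ranked 583. Among genes of fasting and FA oxidation, SLC25A20 had 0.52 (rank 537), ANGPTL4 -0.0064 (rank 5182) and CPT1B -0.42 (rank 8421).

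No partner of the complex in pyruvate handling differed beyond the spread of the cows. All 15 genes of the list were measured, among them DLD, the shared dihydrolipoyl dehydrogenase, the mitochondrial pyruvate carriers MPC1 and MPC2, pyruvate carboxylase, and the related branched-chain and oxoglutarate complexes. Log2 FC was positive for 6 and negative for 9, none had an unadjusted p under 0.05, and the median was -0.05 (range -0.17 to 0.32). The farthest from 0 were PPM1K, the branched-chain phosphatase, at 0.32 ± 0.49 (SE) and at 0.065 with slide as a block, LIAS, the lipoic acid synthase, at 0.26 ± 0.17, and BCKDHB, a branched-chain decarboxylase subunit, at -0.17 ± 0.25.

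Genes for the fates of pyruvate and acetyl-CoA did not move together. Of 16, 15 were matched, with 7 positive and 8 negative log2 FC, a median of -0.01 and none with an unadjusted p under 0.05. ACSS1, the mitochondrial acetyl-CoA synthetase, was lowest at -0.58 ± 0.28 (SE). ACACA, acetyl-CoA carboxylase, was at 0.48 ± 0.70, with the sign turned to -0.17 by the slide block, and the lactate carrier SLC16A3 was at -0.35 ± 0.63, or -0.04 with the block.

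Among transcription regulators linked to PDK genes, 15 of 21 were matched, 7 positive and 8 negative, with a median of -0.01. ESRRA was the 1 gene of 15 with an unadjusted p under 0.05, against 1.63% of all named genes higher in REST. It had log2 signals of 0.92 to 1.63 in CONT and 1.66 to 2.02 in REST, so the groups did not overlap (0.0791% of all named genes), and its log2 FC was 0.55 ± 0.15 (SE), with a Westfall-Young adjusted p of 1 in limma. PPARG, the nuclear receptor of lipogenic cells, was at 0.64 ± 0.40, its coactivator PPARGC1A at 0.58 ± 0.52, and STAT5B at -0.26 ± 0.36, with overlapping groups for all 3. Without CONT cow 6 PPARG was at 0.30, without REST cow 5 PPARGC1A was at 0.13, and without REST cow 3 STAT5B was at -0.03. PPARA was well above background on 1 array.

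Most genes of fasting and FA oxidation had a positive log2 FC. Of 20 genes 17 were measured, and 16 had a positive log2 FC, against 43.5% of all named genes, with CPT2 the exception at -0.11. The median was 0.27. Unadjusted p was under 0.05 for 3 of the 17, all higher in REST, against 1.63% of all named genes, and none passed an adjustment. ANGPTL4, a secreted inhibitor of lipoprotein lipase, was at 1.83 ± 0.59 (SE), SLC25A20, the carnitine-acylcarnitine carrier, at 0.74 ± 0.19, and CPT1B, a carnitine palmitoyltransferase, at 0.76 ± 0.35. The FA transporter CD36 was at 0.72 ± 0.63 (0.33 with slide as a block, 0.28 without CONT cow 6). The acyl-CoA synthetase ACSL1 was at 0.44 ± 0.39 (0.20 with the block) and the acyl-CoA dehydrogenase ACADVL at 0.40 ± 0.19 (0.25 without REST cow 6). PDK4, SLC25A20 and ESRRA are among the genes the study itself picked on these samples, so their direction is not independent evidence. The number of positive genes was 14 on slides 2 and 3 alone, where the median was 0.45, and 14 to 16 when 1 cow was left out.

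**Figure D5:**
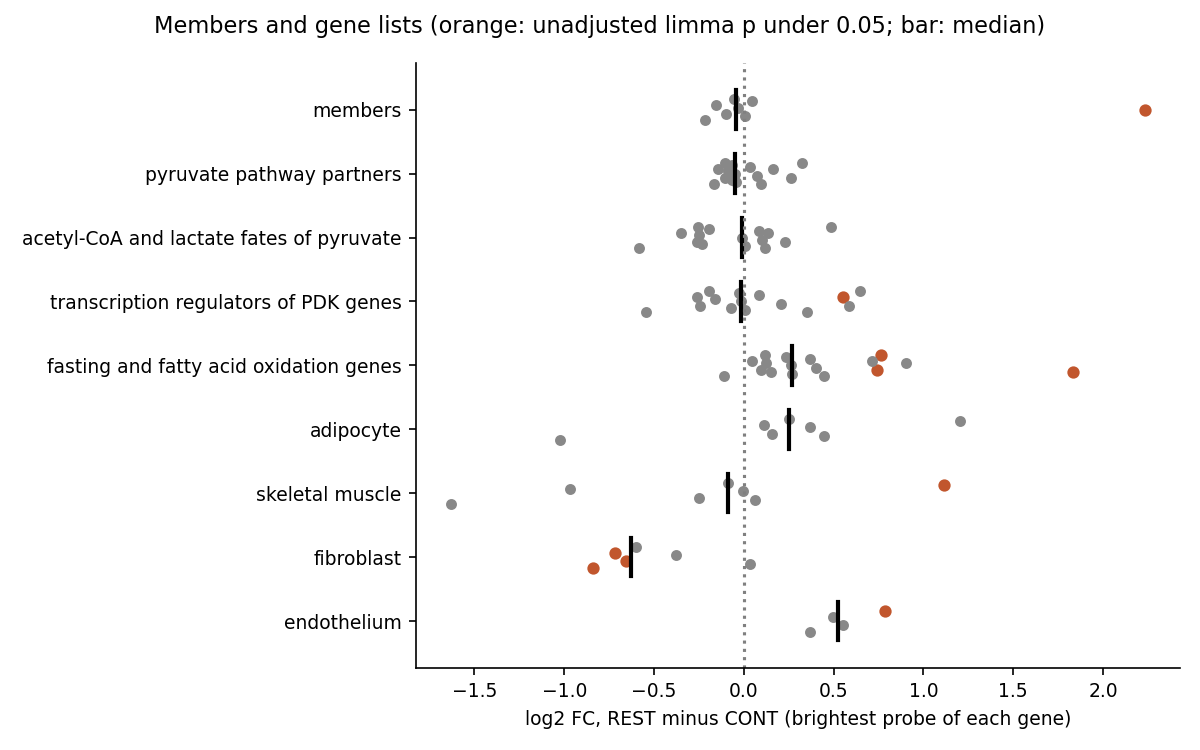
Log2 FC, REST minus CONT (horizontal axis), of the brightest probe of each measured gene (points, orange for an unadjusted limma p under 0.05) in the members and 8 gene lists (vertical axis), with the median of each list as a bar. PDK4 stands alone among the members at 2.23, while the fasting and FA oxidation list has 16 of 17 points above 0.

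Markers of other cell types were read beside these results, since in bulk tissue more cells of a type and more RNA per cell cannot be told apart. Of the 7 matched adipocyte markers 6 had a positive log2 FC and none an unadjusted p under 0.05, and their summed linear signal, relative to the 75th percentile, was 14.0 to 222 in CONT and 111 to 304 in REST. This sum was mostly set by FABP4 (mean log2 signal 5.92 in CONT and 7.13 in REST) and GPD1 (4.63 and 4.79). PLIN1, a defining one, was well above background on 3 arrays. LEP, the 1 with a negative log2 FC, was at -1.02 ± 0.72 (SE), or -0.27 with normexp. It was well above background on 4 CONT arrays and 1 REST array. FABP4, an FA-binding protein, was at 1.20 ± 0.62 (SE), and at 0.59 without CONT cow 6. REST cow 2, with the lowest PDK4 of its group, had the highest adipocyte sum, and CONT cow 6, with one of the lowest PDK4 values of all cows, had the lowest sum. In skeletal muscle, another PDK4-rich tissue, the 7 matched markers summed to 2.05 to 4.96 in CONT and 1.92 to 3.54 in REST. Of these 5 had a negative log2 FC and 2 a positive one (median -0.09), with TNNT3 at 1.12 ± 0.41 (SE), and MYH1 and MYH2 above background on 4 and 5 arrays. TNNT3 was above background on 4 of the 6 CONT arrays, and normexp lowered its log2 FC to 0.42. Fibroblast markers were lower in 5 of 6 genes, 3 of them with an unadjusted p under 0.05, against 1.01% of all named genes (LUM -0.84 ± 0.24, COL1A1 -0.72 ± 0.31, COL1A2 -0.65 ± 0.27), and sums of 49.5 to 66.9 in CONT and 23.0 to 69.4 in REST. With slide as a block their median log2 FC went from -0.63 to -0.35 and that of COL1A1 to -0.39, while LUM had -0.83 with the block. On slide 1 LUM (0.17) and COL1A2 (0.20) were higher in the REST cow. All 4 endothelial genes had a positive log2 FC (VWF 0.79 ± 0.30), with sums of 2.22 to 9.01 in CONT and 7.14 to 12.7 in REST. The lowest sum was that of CONT cow 6, and without this cow VWF was at 0.50, CDH5 went from 0.55 to 0.15, KDR from 0.50 to 0.17 and PECAM1 from 0.37 to 0.059. Neutrophil markers had none of 5 with an unadjusted p under 0.05, and their sum was 17.5 to 169 in CONT and 4.597 to 191 in REST. It was highest of all in REST cow 6, which had the highest PDK4, and lowest in REST cow 2, but CONT cow 1, at 169, had the lowest PDK4 of the 12 cows. Of the 5 matched lymphocyte markers 4 had a positive log2 FC. This count includes MS4A1, which was well above background on 4 REST arrays and on no CONT array. No value is given for MS4A1, and its sign is not evidence of a direction. Of the other lymphocyte markers CD3D was at 0.60 ± 0.26, CD2 at 0.15 and CD79A at 0.13, while CD3E was at -0.09. The lymphocyte sums were 12.3 to 19.6 in CONT and 13.8 to 31.0 in REST. Of the 4 matched macrophage markers 3 had a positive and 1 a negative log2 FC, none with an unadjusted p under 0.05. Their sum was 7.48 to 16.5 in CONT and 4.55 to 22.2 in REST. It was highest of all in REST cow 6 and lowest in REST cow 2, while CONT cow 1, with the lowest PDK4, was at 16.5. The 6 myoepithelial markers had none under 0.05. The part of these cell types in the PDK4 difference was not tested.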

How the data were processed

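RNA of 1 biopsy per cow was hybridized by the authors to bovine one-color arrays of 45220 spots, and the images were read with Feature Extraction (version 11.0.1.1 per the submitters' processing notes; array annotation on UMD_3.1). The deposited values are spot intensity after that software's background correction, without normalization between arrays. The deposited flags mark spots well above background, saturated or outlying. The log2 values of the authors' series table equal those of the scanner files.

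From these, log2 intensity minus the array's 75th percentile was computed as in the study's methods, with outlier spots missing and spots of a probe averaged. Depth does not apply to arrays, and precision is limited by 6 cows per group. Accessions were named through the RefSeq table, which matched 26832 probes to 12639 genes. No coordinates or sequences are given, since no genome of the array's build was used here. Limma 3.58.1 (R 4.3.3) was fitted to all 43653 probes without a filter, with Westfall-Young adjustment over 100 of the 462 distinct splits (lowest possible p 0.01) and Benjamini-Hochberg beside it, at 0.05. The fit was tested on simulated data. Single values had exact permutation tests. A probe not well above background on any array had no FC.

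The members and gene lists were chosen with earlier results of these data known. Named genes are all members, list genes with an unadjusted p under 0.05, up to 3 others of each list with the largest difference among those well above background on all arrays, and the 5 genes most like PDK4. Of marker lists, genes under 0.05 and defining markers are named. The labels do not say which cows share a pen, sire or day, so p-values measure the spread between these cows. Alternatives were quantile normalization, a median shift, normexp (offset 50), the series table, a dim-probe filter, outlier spots kept, slide as a block, a trend in eBayes, the mean over a gene's probes and leaving out each cow.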

Additional observations from a re-analysis of the deposited data

Results flagged for a closer look

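Dixon's test was run on the brightest probe of the matched members in both diet groups, 18 groups of 6 cows in all, of which chance would mark 0.9. These groups include those of PDP1, whose readings were not well above background in any cow. It marked 2. DLAT in CONT had 1 low cow, CONT cow 6 at -3.21, with the other CONT cows between -2.72 and -2.46, a gap of 0.653 of the range, above the critical value. PDHX in REST had 1 high cow, REST cow 5 at -0.72, with the other REST cows between -1.27 and -1.12, a gap of 0.732 of the range. Without CONT cow 6 the log2 FC of DLAT was -0.058, and without REST cow 5 that of PDHX was -0.076.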

How the results depend on the processing

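The PDK4 difference and its contrasts with PDK1, PDK2 and PDK3 kept their direction and their side of the threshold under all alternatives run, and no alternative brought a probe of the array past an adjusted p of 0.05. Small differences changed sign. Slide as a block gave 0.010 for PDK3 and -0.070 for PDHX, the mean over all probes gave 0.023 for PDHA1 and -0.044 for PDHX, quantile normalization gave -0.017 for DLAT and -0.027 for PDHX, and a median shift gave -0.013 and -0.052. The cause was not tested. The number of measured members with a positive log2 FC fell from 3 to 1 with quantile normalization and with a median shift. In alternatives added after the values were seen, normexp left 4 of the 8 PDK4 probes with groups that did not overlap, and slides 2 and 3 alone gave a median of 0.45 for the fasting and FA oxidation genes. Leaving out 1 cow at a time gave log2 FC of 1.87 to 2.46 for PDK4, -0.21 to -0.0090 for PDK1, -0.13 to 0.091 for PDK2, -0.14 to 0.067 for PDK3, -0.22 to -0.10 for PDHA1, -0.29 to -0.16 for PDHB, -0.058 to 0.092 for DLAT and -0.076 to 0.048 for PDHX, contrasts of PDK4 with the other kinases of 1.92 to 2.67, 1.95 to 2.59 and 2.01 to 2.51, 2 to 4 members higher, 7 to 8 PDK4 probes without overlap, 14 to 16 fasting and FA oxidation genes higher and a median for them of 0.26 to 0.40 (0.40 without REST cow 3). No paired analysis was possible because the labels give no number or pairing shared between CONT and REST cows. The signal limited PDP1, which had no reading well above background, and the dim probes of PDK1, PDK2, PDK4 and PDHX, which were not well above background on 1 to 4 arrays.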
